A study of Rattus norvegicus with 4 samples.

Results

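Translation factors are the proteins that bring messenger RNA and transfer RNA to the ribosome and move the ribosome along the message. Initiation factors, whose genes begin with Eif, find the start codon, and elongation factors, whose genes begin with Eef, add amino acids to the growing chain. Cells under stress are known to slow protein synthesis mainly by phosphorylating initiation factor eIF2 and by holding the cap-binding protein eIF4E in a repressed complex, and in the hippocampus local protein synthesis at synapses is required for lasting memory. The genes described here were all those whose symbol starts with Eif or Eef followed by a digit, taken from the array's probe sets that carry exactly 1 such symbol. A probe set is a group of short array probes that reads out the RNA of a gene, and some genes have several. These were 93 probe sets of 60 genes, of 31042 probe sets and 14218 genes on the array, and 5 further probe sets that carry 2 symbols each were left out.

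Hippocampal RNA came from aged male Wistar rats, without genetic modification, that were 15 months old when stress began and 16 months old at dissection. Stressed rats went through 4 weeks of chronic unpredictable mild stress (CUMS), a changing series of mild stressors used to model depression, while nonstressed controls of the same age had standard housing with free food and water. Each group was measured on 2 arrays, each loaded with RNA pooled from 3 rats, and neither the labels nor the methods say if different rats went into the 2 pools. Each p below therefore measures the spread between pools, which may be technical. The whole hippocampus was used, so that fewer cells of a type and less RNA per cell cannot be told apart.

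The values were signal intensities on a linear scale, scaled by the authors to a common target on each array, and their medians were close, at 79.9 and 82.1 in stressed rats and 80.5 and 79.3 in controls. Over all tested probe sets the log2 signals correlated with Pearson r of 0.993 and 0.994 between arrays of the same group and 0.972 to 0.974 between groups, where probe sets are not independent replicates. Markers of hippocampal neurons were detected on every array. Their summed signals were 26912 and 27291 in stressed rats against 25223 and 25530 in controls, with 3 of 12 genes higher and 1 lower. Choroid plexus markers had higher summed signals over all 19 genes on the array, at 21325 and 22650 in stressed rats against 16354 and 18069 in controls. Of 14 tested genes 10 rose, with a median log2 difference of 0.74, but 4 of these entered the test only through the stressed arrays, where they were high, and without them 6 of 10 rose with a median of 0.34. Endothelial and mural markers had summed signals over 12 genes of 4404 and 4456 against 3938 and 3943, with 4 of 11 tested genes higher and 1 lower, and 2 of 8 higher and 1 lower without the 3 that entered only through the stressed arrays. Among the other marker lists, astrocytes had 1 of 9 genes higher and 1 lower, oligodendrocytes 1 and 2 of 9, microglia 1 and 2 of 7, thalamus 0 and 1 of 5, and blood 0 and 0 of 1. Summed astrocyte signals were 44946 and 45543 in stressed rats against 40689 and 41763 in controls. The sums of oligodendrocytes, microglia, thalamus and blood were lower on both stressed arrays than on both control arrays. No marker was at 0, though the embryonic globin Hbe1 stayed under a signal of 20 on all arrays. The part of these shifts in the results below was not tested.

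Of the 93 probe sets, 75 probe sets of 59 genes reached a signal of 100 on 2 or more arrays and were tested by limma on the log2 signals, with p adjusted over all 14791 probe sets tested. The other 18 stayed below this, with a highest signal of 154.2, and the methyltransferase gene Eef1akmt4 had no tested probe set. Most translation factor probe sets did not pass this test. In stressed rats 6 of 75 probe sets (8%) rose at an adjusted p under 0.05, against 12% of all probe sets, and 6 (8%) fell, against 11.8%. Together 12 probe sets of 11 genes changed, which is 16.0% beside 23.8% over all probe sets, and 63 did not pass the test. With each array centred on its median the split was 3 higher and 7 lower. This centring moved the log2 differences of all probe sets down by the same amount, and the share of all probe sets called under it is not given here. At an unadjusted p under 0.05, 10 were higher (13.3%, against 20.4% of all probe sets) and 15 lower (20%, against 17.6%). After adjustment the methods' t-test called 0 of the 75 members and 18 of all 14791 probe sets.

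Most members lay close to no difference. The median log2 difference, stressed minus control, was -0.04 over the members and 0.02 over all probe sets, and the interquartile range ran from -0.14 to 0.06 for members and from -0.13 to 0.17 for all. Of the 75 probe sets, 63 (84.0%) differed by less than 1.2-fold, compared with 72.2% of all probe sets. The median standard error was 0.07 for members and 0.09 for all, so the small differences came with a similar or smaller error. At the study's threshold of a 2-fold difference with unadjusted p under 0.05, 0 members were higher, against 0.216% of all probe sets, and 1 (1.33%) was lower, against 1.38%. The signals of the groups did not overlap for 15 of 75 members that were higher (against 34.9% of all probe sets) and for 26 that were lower (against 29.5%). With 1 probe set per gene, the brightest, 4 of 59 genes were higher (6.78%, against 11.1% of all genes) and 4 were lower (6.78%, against 10.2%).

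**Figure D1:**
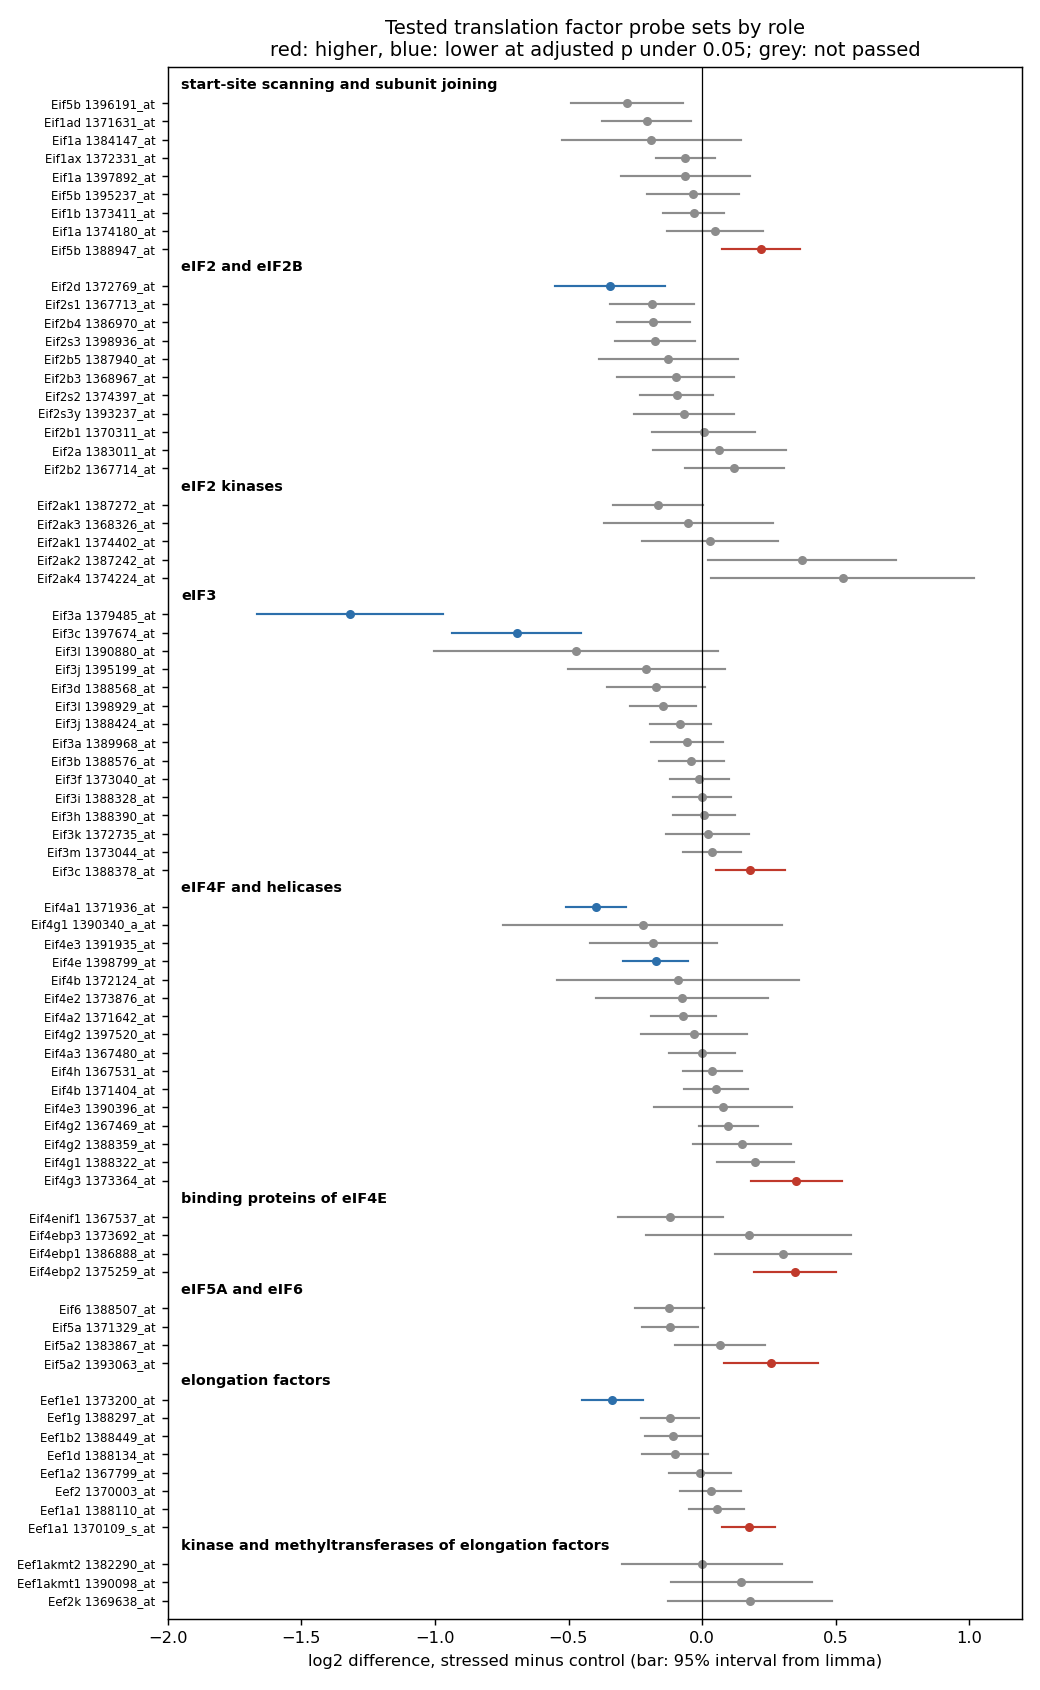
Log2 difference of each tested translation factor probe set (points, stressed minus control) with its 95% interval from limma (bars), grouped by role. Of the 75 probe sets, 6 are in red (higher) and 6 in blue (lower), most intervals cross 0, and the widest departure is the Eif3a probe set 1379485_at at -1.32.

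eIF3 is the large multi-subunit complex that holds the small ribosomal subunit ready for the message, and it held the largest differences. Of its 15 tested probe sets 1 rose, 2 fell and 12 did not pass, with a median log2 difference of -0.06 and 11 of 15 values below 0. Eif3a encodes the largest subunit of the complex. Its dim probe set 1379485_at had signals of 64.7 and 71.8 in stressed rats and 161.1 and 179.0 in controls, so both stressed arrays were below both control arrays. This was a log2 difference of -1.32 ± 0.15 (standard error, here and below; 2 arrays per group), so that the signal fell by 59.9%, with an adjusted p of 0.0011 by limma. The probe set entered the test only through the control arrays, since its stressed signals were under 100, and it was the member past the 2-fold threshold. The other probe set of the gene, 1389968_at, read 1482.8 and 1495.7 against 1473.8 and 1625.6, with overlapping groups and a log2 difference of -0.06 (95% interval -0.19 to 0.08).

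Eif3c encodes another core subunit, and its probe sets went in opposite directions. Probe set 1388378_at had signals of 2480.9 and 2302.8 in stressed rats and 2045.5 and 2171.9 in controls, with no overlap. Its log2 difference was 0.18 ± 0.06 (adjusted p = 0.0491 by limma). Probe set 1397674_at had 373.7 and 425.2 against 588.1 and 706.7, again with no overlap but with the stressed arrays low. Its log2 difference was -0.69 ± 0.10 (adjusted p = 0.0036 by limma), and it was called without any single array, whereas the rise of 1388378_at was lost without stressed replicate 1 or either control array, with adjusted p up to 0.223, and under median centring.

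The remaining subunits of eIF3 did not pass. Eif3f, the brightest of the complex, read 4599.1 and 4360.5 against 4441.4 and 4576.6, and its log2 difference was -0.01 (interval -0.12 to 0.10). Those of the subunits Eif3h and Eif3i were 0.01 (interval -0.11 to 0.12) and -0.00 (interval -0.11 to 0.11). Eif3l had -0.15 (adjusted p = 0.0831 by limma) at its bright probe set and -0.47 ± 0.23 (adjusted p = 0.175 by limma) at its dim one.

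The eIF4F complex binds the cap of the message through Eif4e, unwinds its leader with the helicase Eif4a1 or Eif4a2, and is held together by the scaffolds Eif4g1 and Eif4g3. Of 16 tested probe sets of this complex and its helper proteins 1 rose, 2 fell and 13 did not pass, with a median log2 difference of -0.02. Eif4a1 had signals of 972.3 and 968.1 in stressed rats and 1268.4 and 1287.0 in controls. The arrays of each group lay close together and the groups were well apart. The log2 difference was -0.40 ± 0.05, so that the signal fell by 24.1% (adjusted p = 0.0014 by limma), and it was called with any single array left out. Its paralog Eif4a2, the form most abundant in the brain, read 7219.2 and 6814.0 against 7144.5 and 7590.2. These groups overlapped, and the difference of -0.07 had an interval of -0.19 to 0.05. Eif4a3, a relative that works in the exon junction complex, had -0.00 (interval -0.12 to 0.12).

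Eif4e itself was slightly lower. Its tested probe set had 1320.8 and 1260.3 in stressed rats and 1419.3 and 1491.4 in controls, without overlap. The log2 difference was -0.17 ± 0.05 (adjusted p = 0.0478 by limma), and this call was lost without each array in turn, with adjusted p of 0.0668 to 0.224, and under quantile normalization or median centring. The scaffold Eif4g3 was higher, with 541.5 and 542.4 in stressed rats against 443.5 and 406.2 in controls, and the groups did not overlap. Its log2 difference was 0.35 ± 0.07, a rise of 27.7% (adjusted p = 0.0126 by limma), which without control replicate 2 was 0.29 with an adjusted p of 0.0808. The companion scaffold Eif4g1 had 735.3 and 735.7 against 664.3 and 617.8 and did not pass, at 0.20 ± 0.06 (adjusted p = 0.0535 by limma). Eif4g2, a scaffold that lacks the eIF4E-binding site, had log2 differences of 0.10, 0.15 and -0.03 at its 3 probe sets, and the helicase partners Eif4b and Eif4h had 0.05 and 0.04 at their brightest.

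The 4E-binding proteins keep Eif4e from joining the scaffold until mTORC1 phosphorylates them. Of 4 tested probe sets 1 rose, 0 fell and 3 did not pass, with a median log2 difference of 0.24. Eif4ebp2, the main form in brain, had signals of 742.6 and 754.0 in stressed rats and 561.9 and 614.9 in controls. Both stressed arrays were above both control arrays. The log2 difference was 0.35 ± 0.07, a rise of 27.3% (adjusted p = 0.0090 by limma), and without control replicate 1 it was 0.28 with an adjusted p of 0.0576. Eif4ebp1 had 295.7 and 280.5 against 253.2 and 215.6, without overlap, and did not pass at 0.30 ± 0.11 (adjusted p = 0.0842 by limma). Eif4ebp3 had 0.17, with overlapping groups and an interval of -0.21 to 0.56, and the eIF4E transporter Eif4enif1 had -0.12.

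**Figure D2:**
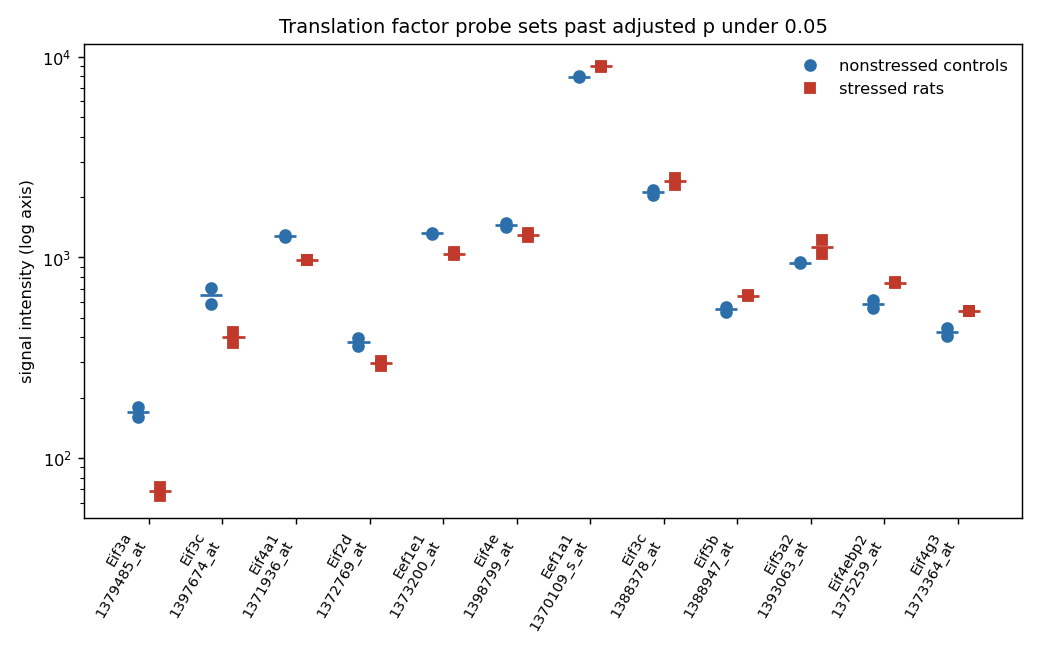
Signal intensity on each array (log axis) of the 12 translation factor probe sets past an adjusted p under 0.05, ordered from the most lowered to the most raised; circles are nonstressed controls, squares stressed rats, and lines the group means of 2 arrays. The groups do not overlap in any of the 12, which were chosen by p on these same arrays. Over all probe sets, 34.9% were higher and 29.5% lower without overlap. Only the Eif3a probe set 1379485_at, at 68.3 against 170.1 on average, is more than 2-fold apart.

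eIF2 carries the initiator transfer RNA to the ribosome, and eIF2B recharges it with GTP. Of 11 tested probe sets in this group, which also holds Eif2a and Eif2d, 0 rose, 1 fell and 10 did not pass. Values below 0 were found for 8 of 11, with a median log2 difference of -0.10. Eif2d, an alternative carrier of transfer RNA that also works in ribosome recycling, had 306.5 and 289.2 in stressed rats and 395.6 and 360.8 in controls, without overlap. Its log2 difference was -0.34 ± 0.09 (adjusted p = 0.0279 by limma), and the call was lost without stressed replicate 2, control replicate 1 or control replicate 2, with adjusted p up to 0.147. The eIF2 subunits themselves did not pass. Eif2s1, whose protein is the one phosphorylated in the integrated stress response, had 957.8 and 1076.1 against 1189.9 and 1124.0, a difference of -0.19 ± 0.07 (adjusted p = 0.0828 by limma). Eif2s3 and the eIF2B subunit Eif2b4 each had -0.18 (adjusted p = 0.0875 and 0.0614 by limma), and Eif2s2 had -0.10 with overlapping groups.

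The kinases that phosphorylate eIF2 answer to heme shortage (Eif2ak1), double-stranded RNA (Eif2ak2), misfolded protein in the endoplasmic reticulum (Eif2ak3) and amino acid shortage (Eif2ak4). Of their 5 tested probe sets 0 rose or fell by limma at the adjusted threshold, while 2 were higher at an unadjusted p under 0.05 and the methods' t-test called 0 after adjustment. Eif2ak4 had 270.3 and 176.5 in stressed rats and 133.3 and 172.4 in controls, so that the arrays of each group were far apart and the groups only just separate. Its difference of 0.53 ± 0.21 (adjusted p = 0.111 by limma) had an interval of 0.03 to 1.02. Eif2ak2 had 0.37 ± 0.15 (adjusted p = 0.112 by limma), from 168.2 and 203.9 against 157.0 and 130.1. Eif2ak3 had -0.05 with overlapping groups, and Eif2ak1 had -0.16 at its brighter probe set and 0.03 at the other.

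Start-site scanning and the joining of the large subunit were read by 9 tested probe sets, of which 1 rose, 0 fell and 8 did not pass, with a median log2 difference of -0.06. The rise was in Eif5b, the GTPase that joins the ribosomal subunits. Its probe set 1388947_at had 647.2 and 639.5 in stressed rats and 568.0 and 537.5 in controls, without overlap, a log2 difference of 0.22 ± 0.06 (adjusted p = 0.0407 by limma). The other Eif5b probe sets differed from this, with -0.03 at 1395237_at (adjusted p = 0.771 by limma) and -0.28 at 1396191_at (adjusted p = 0.0590 by limma). The rise of 1388947_at was lost without each array in turn, with adjusted p of 0.0792 to 0.181, and under median centring. Eif1b, the brightest of this group, had -0.03 with overlapping groups, and Eif1ad, a relative of the scanning factor, had -0.21 (adjusted p = 0.0734 by limma).

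Eif5a and Eif5a2 encode the factor that carries the amino acid hypusine and helps ribosomes through difficult stretches, and Eif6 keeps the large subunit from joining too early. Of 4 tested probe sets 1 rose, 0 fell and 3 did not pass, with a median log2 difference of -0.03. Eif5a2 probe set 1393063_at had 1039.4 and 1217.7 in stressed rats and 946.8 and 935.6 in controls, with stressed replicate 2 the highest. Its log2 difference was 0.26 ± 0.08 (adjusted p = 0.0450 by limma), which without stressed replicate 2 was 0.14 with an adjusted p of 0.189, and which was also lost without either control array. The other Eif5a2 probe set had 0.07 with overlapping groups. The common form Eif5a had 2317.6 and 2282.0 against 2545.4 and 2451.3 and did not pass, at -0.12 (adjusted p = 0.0926 by limma), and Eif6 also had -0.12 (adjusted p = 0.148 by limma).

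Elongation runs on eEF1A, which delivers aminoacyl transfer RNA, on the exchange factors Eef1b2, Eef1d and Eef1g that recharge it, and on Eef2, which moves the ribosome by a codon. Of 8 tested probe sets 1 rose, 1 fell and 6 did not pass, with a median log2 difference of -0.05. Eef1e1 encodes a scaffold protein of the multisynthetase complex despite its factor-like name. Its signals were 1058.7 and 1029.2 in stressed rats and 1319.2 and 1315.3 in controls, with narrow groups that did not overlap. The log2 difference was -0.34 ± 0.05, so that the signal fell by 20.8% (adjusted p = 0.0031 by limma), and it was called with any single array left out. Eef1a1 had 9045.9 and 8926.6 against 7930.5 and 7998.0 at probe set 1370109_s_at, without overlap, where the ending s marks probes shared by several transcripts. Its log2 difference was 0.17 ± 0.04 (adjusted p = 0.0237 by limma), and this was lost without each array in turn, with adjusted p of 0.103 to 0.137, and under median centring. The other Eef1a1 probe set had 0.05 (interval -0.05 to 0.16).

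Eef1a2, which replaces Eef1a1 in mature neurons, had 3165.3 and 3099.9 in stressed rats against 3038.6 and 3266.5 in controls. The groups overlapped, and the log2 difference of -0.01 had an interval of -0.12 to 0.11. Eef2 had 0.03 (interval -0.08 to 0.15), also with overlap. The exchange factors Eef1b2, Eef1d and Eef1g had -0.11, -0.10 and -0.12, each without overlap, and did not pass (adjusted p = 0.117, 0.213 and 0.105 by limma). The kinase that stops elongation, Eef2k, had 0.18 with an interval of -0.13 to 0.49. With the methyltransferases Eef1akmt1 and Eef1akmt2 at 0.15 and 0.00, 0 of the 3 tested probe sets of this modifying group passed by limma, 0 had an unadjusted p under 0.05, and the methods' t-test called 0.

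Of the 13 genes with more than 1 tested probe set, Eif3c was the gene called at more than 1. Set against the brightest probe set of its gene, the dimmer one had the opposite sign in 9 of 16 pairs, against 42.3% of 2363 such pairs over all genes, and in 11 of 16 it lay further down, against 56.0%. The ratio between probe sets within an array shows such unequal change without any scaling between arrays. For Eif3a the dim probe set amounted to 4.36% and 4.80% of the bright one in stressed rats and 10.9% and 11.0% in controls. For Eif3c the ratio was 15.1% and 18.5% against 28.8% and 32.5%. The Eif5b probe set 1388947_at read 96.3% and 86.2% of 1395237_at in stressed rats against 75.2% and 77.6%, whereas 1396191_at read 41.4% and 41.8% against 47.7% and 51.0%. In 7 of 16 pairs the ratios of the groups did not overlap, against 64.6% of pairs over all genes. Where in the transcripts these probes lie was not analysed here.

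**Figure D3:**
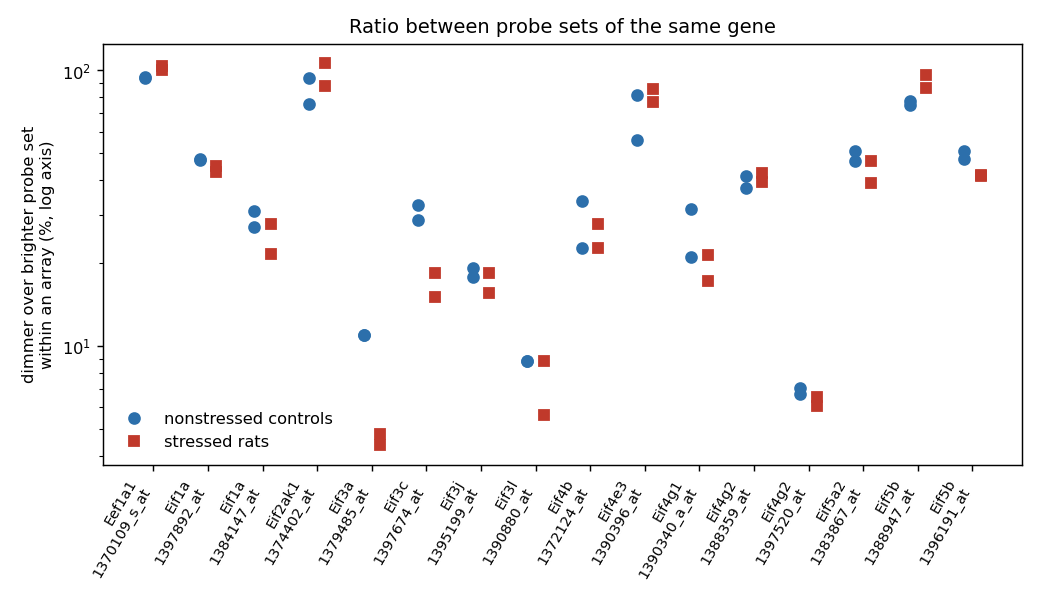
Ratio of each dimmer probe set to the brightest probe set of the same gene within an array (percent, log axis) for the 16 pairs; circles are nonstressed controls and squares stressed rats, 2 arrays each. The ratio for Eif3a falls from about 11.0% in controls to 4.36% and 4.80%, that for Eif3c from 28.8% and 32.5% to 15.1% and 18.5%, and most of the other ratios overlap between the groups.

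Many mRNAs of the translation machinery are known to begin with a 5′ terminal oligopyrimidine tract, a C followed by an unbroken run of C and T, through which mTORC1 controls their translation as a group. RefSeq start sites (build GRCr8) were available for 55 of the 60 genes, with 58 windows. A C at the annotated start followed by at least 4 pyrimidines was found in 1 of 58 windows (1.72%), in 2.63% of 33469 windows of all genes, and in 12 of 43 windows (27.9%) of ribosomal protein genes. When the run could start at any base within 10 of the annotated start, which allows for inexact starts, it was found in 22 of 58 member windows (37.9%), 28.9% of all and 67.4% of ribosomal protein windows. It was found in 4 of 7 windows of genes with a higher probe set, 2 of 6 with a lower one, and 16 of 45 (35.6%) of tested genes with neither. Eif3c counts in both of the first groups, and the untested gene Eef1akmt4, whose window has a run, counts in none. The following windows, 15 bases before and 15 from the annotated start, show Eif2a, whose tract is exact, the called genes with a run near the start, Eef1b2, and Eif4a1 as a called gene without a run, with the run in capitals.
Eif2a, chr2:144911345-144911374, plus strand: ccagcgcatgggtttCTCTTTCCgggacaa
Eef1a1, chr8:88225055-88225084, minus strand: tcgccttggacgttCTTTTTCgcaacgggt
Eef1b2, chr9:72074076-72074105, plus strand: tttccggccggtcccggCCCTTTTTCTCCC
Eef1e1, chr17:26354232-26354261, plus strand: caggctccgCCCCCCTaggagctgggccag
Eif3c, chr1:190583053-190583082, minus strand: tgctttcgggcggatctcggCTTTCggggg
Eif4g3, chr5:155534477-155534506, plus strand: ctccttaactcgCCTTCCagaattcctcga
Eif5a2, chr2:113657819-113657848, plus strand: ggccccgccccgtCTCCTggaccagccgcg
Eif4a1, chr10:54888588-54888617, minus strand: ggcgggcactccgccctagattctaaggat

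The run of Eef1a1 starts 1 base before the annotated start, those of Eif3c and Eef1b2 start after it, and that of Eif2a at it. Eif2a had a log2 difference of 0.07 (interval -0.18 to 0.31), and Eef1a1 and Eef1b2, with pyrimidine runs near the start, had 0.17 at the called probe set and -0.11. The pattern TGATG, then 1 to 3 bases, then CAA was counted on either strand in windows of 250 bases before to 50 after the start. It was in 0 of 58 member windows and in 3.09% of all windows. This pattern does not cover all forms of the amino acid response element, whose presence was not tested.

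Genes that work beside the translation factors were counted at their brightest tested probe set, against 11.1% higher and 10.2% lower over all genes. Of 43 tested ribosomal proteins of the cytosol 2 rose (Rpl21 and Rpl37a, 0.22 and 0.24), 2 fell (Rpsa and Rpl39) and 39 did not pass. Rpsa had -0.16 at its brightest probe set and -0.06 and -0.10 at the others. Rpl39 had -0.97, with 116.5 and 58.5 in stressed rats against 165.6 and 157.0 in controls. With no intensity trend in the spread, 0 were higher and 0 lower. The median log2 difference was -0.02, close to that of the translation factors. In termination and ribosome recycling 0 of 7 rose and 1 fell, with a median of -0.14. This was Etf1, the factor that reads stop codons, with 449.7 and 493.7 in stressed rats against 741.2 and 777.2 in controls, a log2 difference of -0.69 ± 0.07 (adjusted p = 0.00067 by limma). Among the poly(A)-binding proteins and their partners 0 of 6 rose and 1 fell, and the median was 0.04. The lower gene was the inhibitor Paip2, with -0.27 and -0.29 at its probe sets. Its brightest probe set did not pass without an intensity trend (adjusted p = 0.0651 by limma). In nonsense-mediated decay and the exon junction 1 of 8 rose, Upf2 with 0.43, and 0 fell, with a median of 0.09.

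The mTORC1 pathway, which phosphorylates the 4E-binding proteins, had 5 of 17 genes higher (29.4%), 2 lower (11.8%) and a median log2 difference of 0.05. The higher genes were the kinase Mtor with 620.4 and 580.2 against 476.2 and 460.3 (0.36 ± 0.07), its partner Rptor, its inhibitor Deptor, and Tsc1 and Tsc2, whose proteins together restrain the pathway. The lower ones were Rraga, which brings mTORC1 to the lysosome, at -0.25, and the inhibitor Ddit4 at -0.22. Without an intensity trend in the spread, Mtor alone of these genes stayed under the threshold (adjusted p = 0.0372 by limma).

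Kinases and repressors acting on the cap complex had 3 of 14 genes higher and 1 lower, with a median of 0.12. Gigyf1, a partner of the eIF4E-like repressor Eif4e2, had -0.74. The related gene Gigyf2 went the other way at its brightest probe set, with 0.58 (adjusted p = 0.0404 by limma, 0.098 without an intensity trend). Its other probe sets had -0.20 and 0.14. Cpeb3 had 0.26. Cyfip2, a partner of the translational repressor Fmr1, had 0.17 at its brightest probe set (adjusted p = 0.0313 by limma). Its other probe set had -0.78 (adjusted p = 0.00027 by limma). Without an intensity trend 0 genes of this list were higher and 1 was lower. The list of integrated stress response targets, eIF2 phosphatases and related regulators had 2 of 15 higher and 1 lower, with a median of 0.02. Slc7a11, the cystine transporter, had 0.30. Impact, an inhibitor of Eif2ak4, had 0.30 at its brighter probe set and 0.07 at the other. Atf5 had -0.29, while the central factors of the response, Atf4 and Ddit3, had 0.01 and 0.10 and did not pass. Cytosolic aminoacyl-tRNA synthetases and their scaffolds had 3 of 21 higher and 2 lower, with a median of -0.01 and a mean of 0.01. Aimp1, a scaffold of the same complex as Eef1e1, was lower at its brighter probe set (-0.41 ± 0.06, adjusted p = 0.0039 by limma) and had 0.06 at the other. Aimp2, the other scaffold gene in the list, had -0.07 and did not pass. The higher genes were Wars1, Aars1 and Iars1, at 0.30, 0.28 and 0.43, and the other lower gene was Hars1, at -0.38. Without an intensity trend 1 gene of the list was higher and 2 were lower.

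Mitochondrial translation factors had 0 of 8 higher and 1 lower, Mtrfr at -1.31, whose stressed signals of 45.8 and 46.0 were below the filter of 100, and the median was -0.10. The hypusine and diphthamide list holds genes whose proteins modify Eif5a and Eef2, and also genes of polyamine metabolism such as Sms. Its median was 0.02 and its mean -0.02, and 0 of 14 genes were higher and 2 were lower. These were the spermine synthase gene Sms, at -0.44 and -0.37, and Dohh, which completes hypusine, at -0.30. Dohh did not pass without an intensity trend (adjusted p = 0.0587 by limma).

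**Figure D4:**
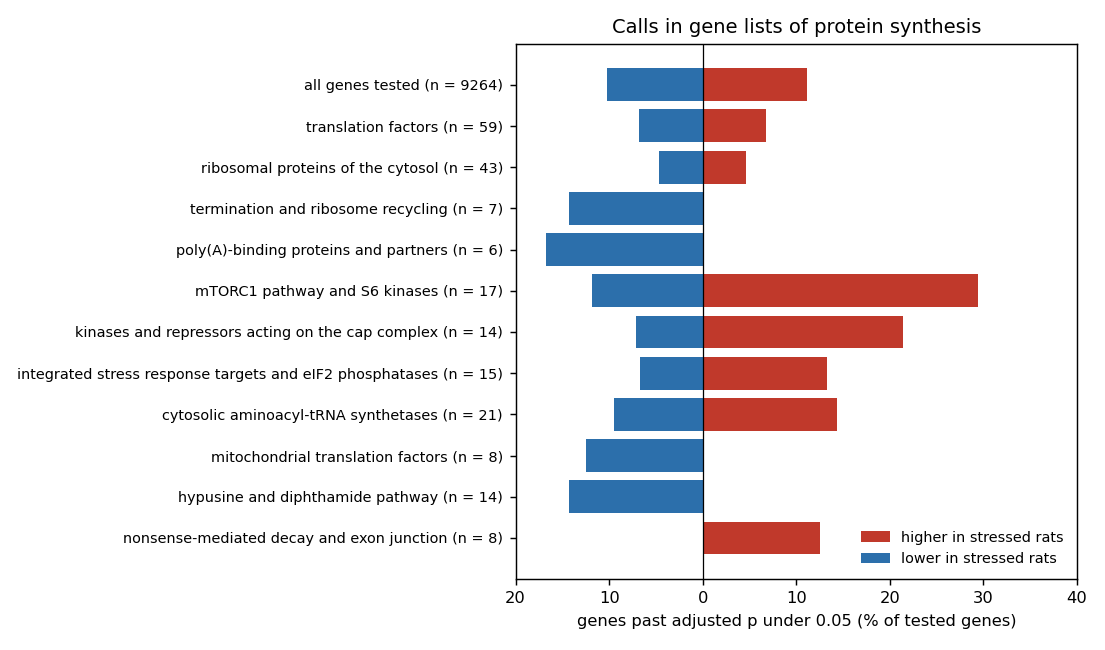
Share of tested genes past an adjusted p under 0.05 (percent; left of 0 lower, right of 0 higher in stressed rats) for all genes, the translation factors and 10 gene lists, each gene at its brightest probe set, with the number tested in parentheses. Translation factors are at 6.78% in each direction (4 of 59 genes) and ribosomal proteins at 4.65% (2 of 43). All genes are at 11.1% higher and 10.2% lower. Few genes lie behind these list shares, and in a list as short as 7 genes a lone gene gives 14.3%.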

How the data were processed

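Total hippocampal RNA was hybridized to Affymetrix Rat Genome 230 2.0 arrays, and the authors processed the signals with GCOS 1.4 at a target value of 300. The deposited values are these signal intensities on a linear scale. No array column was left unused (0), and detection calls were not used here. Arrays were grouped by their sample titles.

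Signals were floored at 0.1 and taken to log2. Affymetrix controls (57 probe sets) were dropped. Among the other probe sets, those that reached a signal of 100 on 2 or more of the 4 arrays were compared by limma 3.58.1 (R 4.3.3) with an intensity trend, 7.73 moderated degrees of freedom and Benjamini-Hochberg adjustment. The smallest two-sided p of an exact permutation test here is 0.333. The number of arrays limits the precision. The comparison was tested on simulated data. Figures were drawn with matplotlib 3.10.9 and tables made with pandas 2.3.3 under python 3.11.15.

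Genes were named from the platform annotation, and all 93 member probe sets matched RefSeq. The genes named were drawn from members past the adjusted threshold, their other tested probe sets, the brightest of each role and, for 10 lists of related genes, the 3 with the smallest p. Any other gene was named for its role after its values were seen. Members, lists and the 8 marker lists were chosen with earlier results of these data known. The alternatives were other scalings, filters, an offset of 50, no trend, the methods' t-test, a replicate block, 1 probe set per gene, no shared-probe identifiers, and each array left out.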

Additional observations from a re-analysis of the deposited data

How the results depend on the processing

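Of the 6 higher and 6 lower probe sets, 4 were called with each array left out in turn (Eif3a 1379485_at, which entered the test only through the control arrays, Eif3c 1397674_at, Eif4a1 and Eef1e1), where a lone array is assumed to vary like the other group, and 3 in no removal (Eef1a1, Eif4e and Eif5b). The higher count was 1 to 4 with an array left out (1 without either control array, 3 without stressed replicate 1), 3 under median centring, and 2 each with no filter on dim probe sets, no intensity trend or the replicate block, while lower calls were 4 to 6 with an array left out and 7, 5, 4 and 5 under those settings. The methods' t-test called 0 higher and 0 lower after adjustment, and 4 (5.33%, against 12.6% of all probe sets) and 5 (6.67%, against 12%) at an unadjusted p under 0.05. The causes were not tested. A crossed pairing of the arrays was added after the data were seen because the deviations of same-numbered arrays correlated at -0.11. It gave 10 higher and 11 lower. In this paragraph the share of all probe sets is given only for the methods' t-test, so the other counts cannot be read as a result about the members. Neither the labels nor the methods say that the replicate numbers pair the pools. At the 2-fold threshold 1 member was higher with no filter (a dim Eif4h probe set, chosen after its values were seen), and 0 were lower with a filter of 200, which left Eif3a 1379485_at untested, or an offset of 50, which shrinks dim differences. The median ranged from -0.052 to -0.014 with an array left out, the last without control replicate 2. Among the 24 member probe sets covered by the naming rule, 247 of 311 alternative values kept their direction and side of the threshold, 56 no longer passed, 2 newly passed and 6 changed sign, all in probe sets that did not pass before or after: with an array left out, Eif3a 1389968_at ranged from -0.13 to 0.015 (positive without control replicate 2), Eif5b 1395237_at from -0.11 to 0.038 (positive without stressed replicate 1, and at 0.029 without control replicate 1), Eif3f from -0.048 to 0.029 (positive without stressed replicate 2, and at 0.012 without control replicate 2), and Eif1b from -0.071 to 0.0087 (positive without stressed replicate 2). For the 30 other genes under the rule, not all of them named in the text, these counts were 310, 73, 2 and 0 of 385.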

Other observations

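The 5 probe sets that carry 2 symbols, and so were left out of the members, were set apart without naming their genes. Of these, 4 were bright enough to be tested by limma, 2 were higher and 2 were lower at an adjusted p under 0.05, and their log2 differences ran from -0.33 to 0.31. The share called over all probe sets is given in the Results, and these probe sets are too few for a rate to be compared with it. How their calls depend on the processing was not tested.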
